A study of Mus musculus with 12 samples.

Results

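The data described here are the hippocampal transcriptomes of the 6 wild-type (WT) mice of a bulk RNA-seq series of 12 mice. The members were chosen by label alone: every library whose genotype is given as WT was taken, which gave 3 females and 3 males, named below female WT 1 to 3 and male WT 1 to 3. All 6 were adults of 3 months, were littermates of mice heterozygous for the Nell-1 6R allele (Nell-1+/6R), carried no 6R allele by their label and received no treatment that the labels name. The sample titles of these mice read "Het WT" while their genotype field reads WT, and the genotype field was followed. The strain background was not stated. The other 6 mice, Nell-1+/6R, were not compared with them. Each library was made from hippocampal RNA and read as single 50-base reads, and it holds 10834905 to 16016317 counts assigned to genes. Every female library was deeper than every male library, the shallowest female library holding 12765861 counts and the deepest male library 11661109.

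The hippocampus is the cortical structure of the temporal lobe that encodes new episodes and places. Its principal cells are glutamatergic: granule cells of the dentate gyrus, whose axons reach the pyramidal cells of area CA3, which in turn drive the pyramidal cells of CA1. Local GABAergic interneurons, astrocytes, microglia and myelinating oligodendrocytes are dissected with them, and the structure borders the choroid plexus of the lateral ventricle, the epithelium that secretes cerebrospinal fluid. In bulk tissue, a change in the number of cells of a type and a change in RNA per cell cannot be told apart.

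Levels are given as counts per 1e+06 counts of a library (CPM), scaled between the 6 libraries by TMM factors, and as CPM per kilobase of annotated exon (RPKM) where genes are ordered against each other, because a longer transcript yields more reads at the same abundance. The spread of a gene between mice is its coefficient of variation (CV), the SD over the 6 mice divided by their mean. The excess CV is what remains of it after the part that counting reads alone would give has been removed.

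The tissue label was checked against marker genes. All 15 genes of a list for hippocampal principal neurons were above 5 CPM. Slc17a7, the vesicular glutamate transporter of these cells, had the highest level per length after Camk2a among them, 682 ± 43.02 RPKM (SD, n = 6). Prox1 and C1ql2, which mark granule cells, stood at 2.79 ± 0.946 and 46.7 ± 4.15 RPKM, and Wfs1 and Fibcd1, which mark CA1, at 49.5 ± 7.703 and 38.9 ± 4.56 RPKM. Peptides of the hypothalamus and pituitary were close to absent. None of the 10 genes of that list reached a mean of 5 CPM and their summed level was 2.89 to 7.47 CPM, with Oxt at most 0.346 CPM and Pmch at 1 count in male WT 1 and 0 counts in the other 5 mice. Genes of neighbouring regions were read at low levels. Of the 9 genes of the thalamus and habenula list, 6 reached a mean of 5 CPM, and their sum was 71.9 to 119 CPM. A mean of 1 CPM was reached by 7 of the 9, all but Pou4f1, at most 0.154 CPM, and Gbx2, at most 0.6896 CPM. Prkcd was read at 25.2 to 54.9 CPM. All 8 striatal genes reached a mean of 1 CPM and 5 reached 5 CPM, with a sum of 97.9 to 133 CPM. Drd1 and Adora2a stood at 3.87 to 9.16 CPM and 1.45 to 3.07 CPM, so that the other members held most of that sum.

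The sex labels were checked in each library. Xist, the noncoding RNA that silences the inactive X chromosome, was at 363, 284 and 354 CPM in the females and 1.21, 0.948 and 0.526 CPM in the males. Eif2s3y, Kdm5d, Ddx3y and Uty, genes of the Y chromosome, were at 4.82 CPM or more in every male and at 0.076999 CPM or less in every female, so that each library matched its label.

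Counts were found for a large part of the annotated genes. Of 27179 gene IDs in the table, 13696 reached 1 CPM in every WT mouse and 6412 had no count in any of them. The mean was at least 5 CPM for 11609 gene IDs, at least 100 CPM for 2044 and at least 1000 CPM for 81. The reads were concentrated on few of these. The 10 most abundant gene IDs held 8.404% to 10.02% of a mouse's counts, the first 100 held 22.2% to 23.7%, and the first 1000 held 53.1% to 54.7%. Nuclear protein-coding genes took 88.4% to 90.2% of the counts, and long noncoding RNAs took 1.699% to 1.89%.

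The first rank belonged to a gene ID that the references used here do not name, Entrez 100861531. It stood at 36834, 38135 and 46564 CPM (lowest, median, highest), highest in male WT 3, and took 3.67% to 4.65% of a mouse's counts by itself. No length was known for it, so it cannot be placed on the scale per kilobase.

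**Figure D1:**
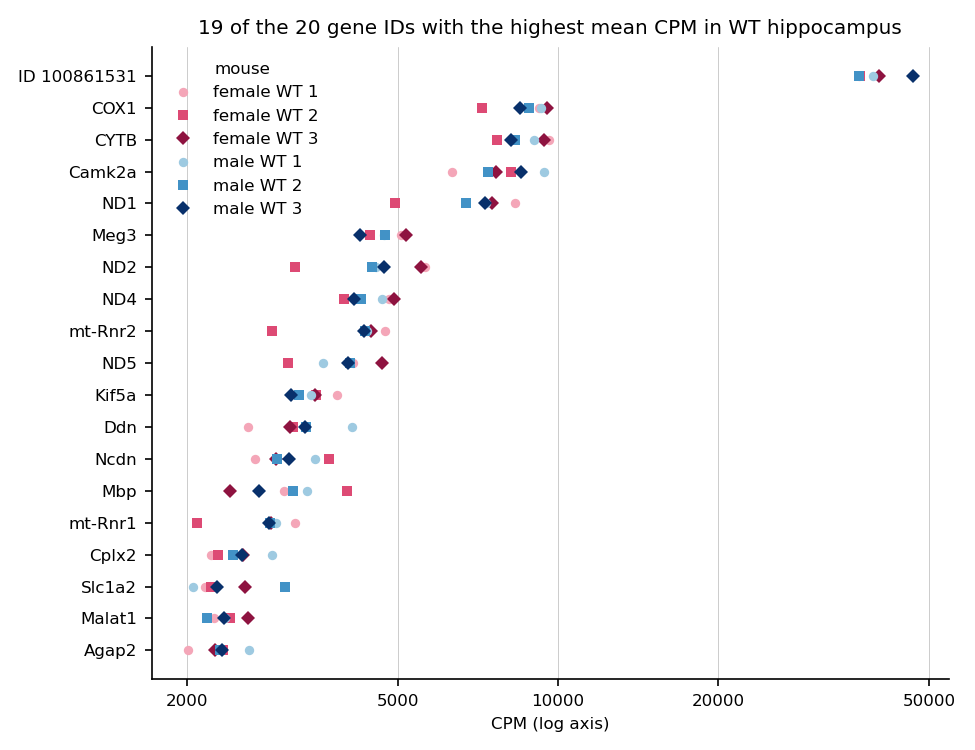
CPM (log axis) of 19 of the 20 gene IDs with the highest mean in the 6 WT mice, 1 point per mouse, females in reds and males in blues. The first ID lies between 36834 and 46564 CPM and apart from all others, female WT 2 is the lowest mouse for the mitochondrial transcripts COX1, CYTB, ND1, ND2, ND4, ND5, mt-Rnr1 and mt-Rnr2, and the ranges of neighbouring genes overlap below the first ID. 1 ID is not shown.

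Transcripts of the mitochondrial genome came next. They encode subunits of the respiratory chain and the ribosomal RNAs of the organelle, and 6 protein-coding and 2 ribosomal RNA genes of mitochondria were among the 20 most abundant IDs. COX1, the catalytic subunit of cytochrome c oxidase, was at 7204, 9027 and 9519 CPM (lowest, median, highest). CYTB, cytochrome b of complex III, was at 7666, 8663 and 9612 CPM. Female WT 2 held the lowest value of both genes. The 13 protein-coding genes together took 3.17% of its counts, against 3.796% to 4.41% in the other 5 mice, and the mitochondrial ribosomal RNAs took 0.508% against 0.715% to 0.808%.

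These 13 genes fell into separate ranges. On the scale per kilobase, CYTB led all genes with a known length at 7603 ± 672 RPKM (SD, n = 6), followed by ND1 at 7326 ± 1190.3, COX1 at 5669 ± 549 and ND2 at 4506 ± 844 RPKM. ATP6, COX2 and COX3, encoded on the same molecule, stood at 8.72 ± 1.42, 8.06 ± 0.968 and 6.91 ± 2.19 RPKM. In all, 7 of the 13 genes exceeded 1000 CPM and 6 were below 10 CPM. Most of the low genes share their sequence with other annotated genes. Of all 50-base stretches of the transcript, the length of a read, 99.5% for ATP6, all for COX2, 99.9% for COX3, 97.99% for ND3 and 98.8% for ND4L also occur in transcripts of another gene, against none for CYTB, ND1 and ND6. ATP8 was low with no stretch shared, and COX1 and ND4 were high, above 1000 CPM, with 51.1% and 62.2% shared. The sources do not say how reads that fit several genes were counted, and the levels of the low genes are uncertain.

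Among the first 20 by CPM were several genes of neurons. Camk2a, the alpha subunit of the calcium- and calmodulin-dependent kinase of excitatory synapses, was at 6323, 7913 and 9401 CPM (lowest, median, highest), the lowest in female WT 1 and the highest in male WT 1. Among nuclear genes with a known exon length it had the highest level per length, 1398 ± 186 RPKM (SD, n = 6). Kif5a, a kinesin that moves cargo along axons, was at 3149, 3461 and 3838 CPM. Ddn, dendrin of the postsynaptic density, was at 2607, 3255 and 4088 CPM, and Ncdn, neurochondrin, at 2688, 3038 and 3703 CPM. Cplx2, complexin of the synaptic vesicle, was at 2226, 2495 and 2891 CPM. Camk2a and Cplx2 shared their extremes, with female WT 1 the lowest mouse and male WT 1 the highest for both.

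The first 20 also held glial genes and noncoding RNAs. Mbp, a structural protein of myelin, was at 2414, 3109 and 4017 CPM, with female WT 3 the lowest and female WT 2 the highest. Slc1a2, the glutamate transporter of astrocytes, was at 2061, 2252 and 3071 CPM and was highest in male WT 2. Meg3 and Malat1, nuclear noncoding RNAs, had means of 4721 and 2365 CPM and CVs of 7.61% and 6.13%. The order within the first 20 was loose, since 18 of the 19 pairs of neighbouring ranks had overlapping ranges. The last inside, Agap2 with a mean of 2313 CPM, and the first outside, Bc1 with 2307 CPM, lay close together.

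Per kilobase the order changed, and 10 IDs were in both groups of 20. Exon length was known for 11349 of the 11609 genes with a mean of at least 5 CPM, and the ID with the highest CPM and Bc1, a short noncoding RNA, had none, so neither could be ranked. Shorter transcripts moved up: Fth1, the heavy chain of the iron store ferritin, was at 1228 ± 94.97 RPKM, Nrgn, the calmodulin-binding neurogranin of dendrites, at 1059 ± 69.9, Cpe, which trims neuropeptides, at 996 ± 35.7, and Apoe, the lipid carrier of astrocytes, at 876 ± 53.6 RPKM (SD, n = 6). Snap25, a SNARE of vesicle fusion, was at 851 ± 88.2 RPKM, and Aldoa, a glycolytic aldolase, at 818 ± 30.5 RPKM. Calm3 was at 805 ± 35.1 RPKM, above Calm2 at 495 ± 37.1 RPKM. Both encode calmodulin, and the lowest mouse of Calm3, at 758 RPKM, lay above the highest mouse of Calm2, at 539 RPKM. Of the 50-base stretches of Calm2, 9.72% occur in other genes, against 2.52% for Calm3. Ttr, transthyretin, also reached the first 20 per length, with 993 ± 1407 RPKM, an SD larger than its mean. Without male WT 3 its mean was 475 RPKM, which is outside the first 20.

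Most genes varied little between the mice. Among the 11609 genes with a mean of at least 5 CPM, the median CV was 9.299% and the median excess CV 7.36%. The CV was below 10% for 6361 genes (54.8%) and above 50% for 82 (0.706%). It depended on the level, with a median of 14.9% between 5 and 10 CPM, 9.81% between 10 and 50 CPM, 7.38% between 50 and 100 CPM, 6.596% between 100 and 1000 CPM and 7.28% above 1000 CPM. Removing the mean of each sex left the median at 9.36%. Over these genes, the log2 levels of any pair of mice correlated with a Pearson's r of 0.9797 to 0.988, a description across genes, which are not independent replicates.

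**Figure D2:**
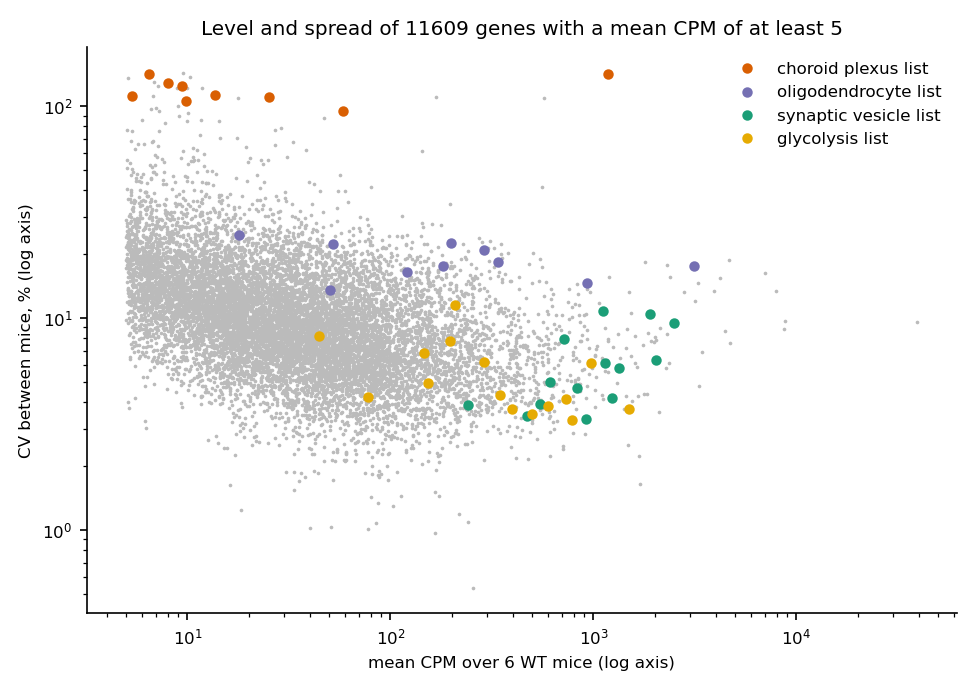
CV between the 6 WT mice (%, log axis) against mean CPM (log axis) for the 11609 genes with a mean of at least 5 CPM (grey points), with 4 gene lists in colour. The choroid plexus genes lie between 94.3% and 142%, whereas glycolysis genes lie between 3.31% and 11.5%.

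The genes at the head of the ranking by excess CV included most of the choroid plexus list. Ttr, the thyroxine carrier that this epithelium secretes, was at 1919.9, 689.6 and 25.6 CPM in the females and 93.4, 88.8 and 4251 CPM in the males. Male WT 3 was 166-fold above female WT 3 in CPM, on 48472 counts against 371. Folr1, the folate receptor of the epithelium, was at 13.97, 7.6999 and 0.8296 CPM in the females and 1.395, 1.81 and 30.9 CPM in the males. Kcne2, a potassium channel subunit of its apical membrane, was at 8.64, 4.62 and 0.207 CPM in the females and 0.9302, 0.431 and 24.03 CPM in the males. The mice at the top stood in the same order for each of these genes: male WT 3, then female WT 1, then female WT 2, with the other 3 mice well below.

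That order recurred throughout the group. All 9 genes of the choroid plexus list (Ttr, Folr1, Kl, Clic6, Aqp1, Kcne2, Otx2, Sostdc1 and Prlr) had it, with a median CV of 113%, and so did 16 of the 20 genes with the highest excess CV, 37 of the 100 with the highest excess CV and 121 of all 11609 genes (1.04%). The order was read from these genes, so their count is a description. The 16 include F5, Slc4a5, Cldn2, Tmem72, Kcnj13, Ecrg4, Enpp2 and Slc2a12, which the list did not hold. Enpp2, the lysophospholipase D autotaxin, was at 726, 461 and 132 CPM in the females and 166, 195 and 1763 CPM in the males. Otx2, the homeobox factor of the choroid plexus, was at 7.72, 4.004 and 0.7605 CPM in the females and 1.21, 2.16 and 16.3 CPM in the males. The summed level of the list was 2117, 793 and 55.3 CPM in the females and 131, 136 and 4652 CPM in the males. Both sexes thus held high and low mice. Without male WT 3 and female WT 1 together, 13 of the 20 most variable genes fell under the mean of 5 CPM that the ranking asks for, and 6 stayed in it. The spread of the 20 remained, with a CV above 50% for 19 of them and a median of 105% over the other 4 mice, Slc2a12 being the exception at 28.3%.

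**Figure D3:**
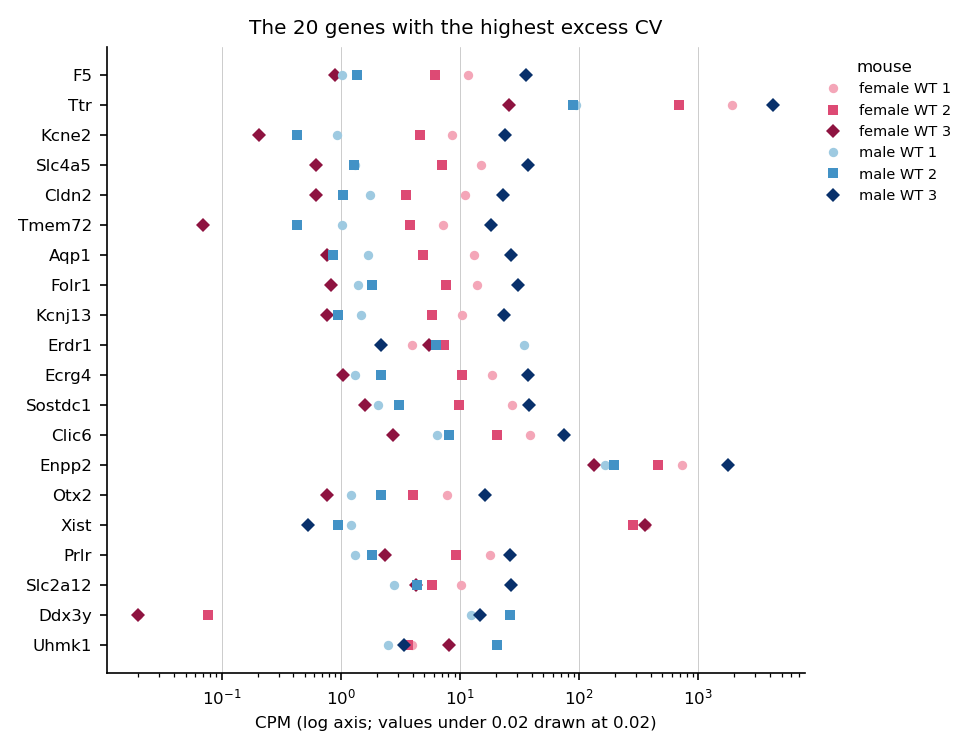
CPM (log axis) in each WT mouse of the 20 genes with the highest excess CV among genes with a mean of at least 5 CPM, ordered from the highest excess CV, with values under 0.02 CPM drawn at 0.02. In 16 of the 20 genes male WT 3 is highest, then female WT 1 and female WT 2. Xist and Ddx3y split by sex instead, Erdr1 is highest in male WT 1 and Uhmk1 in male WT 2.

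The 4 others of the 20 had other patterns. Xist and Ddx3y followed sex. Erdr1, a gene of the pseudoautosomal region, was at 34.6 CPM in male WT 1 and at 2.19 to 7.39 CPM in the other 5 mice. Uhmk1, a serine/threonine kinase, was at 20.5 CPM in male WT 2 and at 2.51 to 8.02 CPM in the others. The last gene inside the 20 was Uhmk1 with an excess CV of 97.001%, and the first outside was Trpv4 with 95.4%.

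Markers of other tissues at the border of the hippocampus varied as well. Leptomeningeal fibroblast genes, which mark the membranes over the brain, summed to 389, 226 and 127 CPM in the females and 174, 225 and 374 CPM in the males. Igf2, which choroid plexus also expresses, made up much of that sum with 54.3 to 280.5 CPM and was the only 1 of the 10 genes with the full order of the choroid plexus list. The sum was highest in female WT 1 and male WT 3, the mice that also led the choroid plexus list, and of the 8 members at 5 CPM or more, 5 were highest in female WT 1, 2 in male WT 3 and 1 in female WT 2. That 1, Col1a1, a fibrillar collagen, was at 19.2, 20.9 and 7.19 CPM in the females and 10.8, 13.7 and 8.51 CPM in the males. The mural cell list summed to 227, 179 and 145 CPM in the females and 159.8, 228 and 135 CPM in the males, and of its 7 members at 5 CPM or more, 4 were highest in male WT 2 and 1 each in female WT 1, female WT 2 and female WT 3. Its contractile genes Acta2, Tagln and Myh11 were high in female WT 1 and male WT 2. Acta2, smooth muscle actin, was at 32.1 and 37.2 CPM there and at 10.9 to 16.1 CPM in the others. Myh11, smooth muscle myosin, was at 28.97 and 37.2 CPM against 9.54 to 16.4 CPM. The 5 ependymal genes, which mark the lining of the ventricle, summed to 21.5 to 36.3 CPM. The part of these tissues in the spread of other genes was not tested.

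Among the cell types of the hippocampus itself, oligodendrocyte genes varied together. All 10 had a CV above the median of all genes, between 13.6% and 24.6%. Female WT 2 was the highest mouse for 9 of the 10 (male WT 2 for Ermn) and female WT 3 the lowest for 8. Over all 11609 genes, by comparison, a given mouse was the highest for 9.88% to 22.1% and the lowest for 14.6% to 19.8%. The sum of the 10 was 5239, 6792 and 4177 CPM in the females and 5462, 5527 and 4622 CPM in the males. Mag, an adhesion protein of the myelin sheath, ran from 156 to 278 CPM and Mobp, a basic protein of myelin, from 211 to 394 CPM.

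The sums that follow varied less than that of oligodendrocytes (CV of 16.9%), whereas the mural cell sum varied more (22.7%). Microglial genes summed to 482 to 528 CPM, GABAergic genes to 705 to 812 CPM, astrocyte genes to 5727 to 6904 CPM, endothelial genes to 177 to 221 CPM and principal neuron genes to 9621 to 13316 CPM. Within the sums, genes differed. Gad1 and Slc32a1, the synthetic enzyme and vesicular transporter of GABA, had CVs of 4.86% and 4.52%, whereas Cnr1, the cannabinoid receptor of a class of interneurons, had 19.9%. Among astrocyte genes, S100b had a CV of 3.16% and Gfap, the intermediate filament, one of 20.2%, with 703 CPM in female WT 2 and 403 to 497 CPM in the others. Among principal neuron genes, Dsp, a desmosomal protein of granule cells, ran from 26.1 CPM in female WT 1 to 86.03 CPM in male WT 2, with a CV of 35.2%. Prox1 ran from 15.99 to 38.96 CPM between the same mice. Female WT 1 was the lowest mouse for 9 of the 15 principal neuron genes and for 10 of the 15 postsynaptic density genes.

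**Figure D4:**
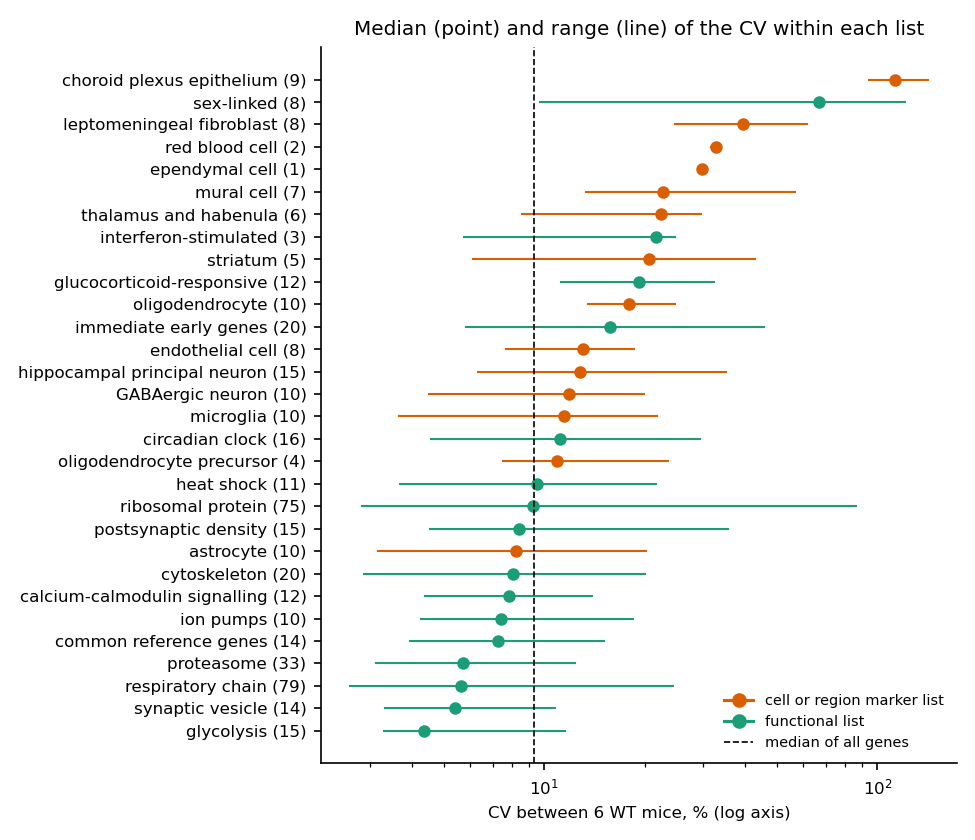
Median (point) and range (line) of the CV between the 6 WT mice (%, log axis) for each gene list, with the number of members at 5 CPM or more in brackets and the median of all genes as a dashed line. Choroid plexus genes have the highest median, 113%, and glycolysis genes the lowest, 4.34%.

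Glycolytic, respiratory chain, proteasome and synaptic vesicle genes had low median CVs. Of the 30 lists with a member at 5 CPM or more, 19 had a median CV above that of all genes. Glycolytic genes had a median CV of 4.34%, and 1 of the 15 members at 5 CPM or more exceeded the median of all genes, Eno1 with 11.5%. Pkm, pyruvate kinase, ran from 732 to 802 CPM and Hk1, the hexokinase of brain, from 473 to 523 CPM. Synaptic vesicle genes had a median CV of 5.39%. Sv2a, a vesicle glycoprotein, was at 443 to 482 CPM (3.43%). Nuclear respiratory chain genes had a median of 5.62%, and proteasome genes 5.71%. All 4 medians were also below those of genes of their own level, which were 7.38% at 50 to 100 CPM, 6.596% at 100 to 1000 CPM and 7.28% above that. Ion pumps at 7.41%, calcium and calmodulin signalling at 7.86% and the postsynaptic density at 8.41% lay below the median of all genes but above that of genes at 100 to 1000 CPM. Heat shock genes, at 9.49%, lay above the median of all genes and that of genes at 50 to 100 CPM.

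Cytoskeletal genes had a median CV of 8.04%. Mapt, which encodes tau, ran from 585 to 629 CPM (2.88%), and Map2, of dendrites, from 426 to 681 CPM (17.3%). Tuba1a and Tuba1b, the major alpha-tubulins, were listed at means of 9.41 ± 1.46 and 9.92 ± 1.99 CPM (SD, n = 6). Of their 50-base stretches, 72.9% and 66.7% occur in other genes, and these levels are uncertain.

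The steadiest genes were of modest level. Among the 4198 genes with a mean of at least 50 CPM, the 20 with the lowest CV lay between 0.533% and 1.84%. For 19 of them the spread was no larger than counting reads alone would give, as for 129 (3.07%) of the 4198 genes, which follows from choosing the lowest CVs and is a description only. Ank, a transporter of pyrophosphate, was at 256, 254 and 255 CPM in the females and 257, 255 and 258 CPM in the males. Os9, a lectin of protein quality control in the endoplasmic reticulum, was at 163 to 168 CPM, and Phf21a, a subunit of a histone demethylase complex, at 76.1 to 78.5 CPM. Dctn2 of dynactin was at 216 to 223 CPM, Sar1a of the vesicle coat at 110.0 to 114 CPM, and the kinase Cdc42bpb at 239 to 246 CPM. Sparcl1, an astrocyte-secreted matrix protein, was at 1657, 1686 and 1733 CPM (lowest, median, highest) and the only 1 of the 20 with an excess CV above 0, 1.49%. The last inside the 20, Noc2l with 1.84%, and the first outside, Otud7a with 1.85%, lay close together. The rank was loose, since 6 to 15 of the 20 stayed in the group when 1 mouse was left out.

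Common reference genes did not stand apart, with a median CV of 7.26% over the 14 of 16 at 5 CPM or more. Sdha, of respiratory complex II, was the steadiest at 358 to 399.8 CPM (3.95%), followed by Pgk1 at 72.8 to 80.3 CPM (4.21%), Ywhaz at 488 to 549 CPM (4.35%) and Polr2a at 103 to 118 CPM (4.67%). Actb ran from 946 to 1102 CPM (6.05%), Hprt from 38.1 to 46.3 CPM (7.17%) and Rpl13a from 133 to 161 CPM (7.34%). The CV was 9.25% for Ppia, 10.4% for B2m, 10.7% for Rplp0, 11.3% for Tbp, 11.8% for Tfrc and 15.1% for Gusb. Gapdh was listed at only 1.87 to 3.07 CPM. Of the 50-base stretches of Gapdh, 24.7% occur in transcripts of 218 other genes.

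Immediate early genes are switched on within minutes of neuronal firing, and circadian clock genes rise and fall with the day. All 20 immediate early genes and all 16 clock genes were above 5 CPM, with median CVs of 15.7% and 11.1%. Arc, which acts at synapses, was at 279, 349.7 and 329 CPM in the females and 387, 412 and 287 CPM in the males. Egr1, a zinc finger factor, was at 234, 256 and 238 CPM in the females and 296, 322 and 215 CPM in the males. Male WT 2 was the highest mouse for 9 of the 20, against 20.3% of all genes. Female WT 1 was the lowest for 6, against 16.2% of all genes, and female WT 2 for 5. Fos was at 34.6 to 42.2 CPM (6.74%), and Nr4a3, an orphan nuclear receptor, was the most variable at 9.43 to 30.3 CPM (45.7%).

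Among clock genes, Tef, a PAR bZIP factor, was the steadiest, at 417, 446 and 442 CPM in the females and 477, 454 and 463 CPM in the males (4.56%). Per1, a repressor of the clock, was at 162, 199.6 and 168 CPM in the females and 233, 223 and 197 CPM in the males (14.4%). Clock itself was the most variable, at 21.02 to 43.3 CPM (29.4%), highest in male WT 2. Dbp, a strongly rhythmic output gene, ran from 66.4 to 103 CPM, lowest in female WT 3.

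The promoters of Per1 and Tef are shown because both hold a canonical E-box, the sequence that the CLOCK and BMAL1 factors bind, and those of Btg2 and Dusp1 because both hold a cyclic AMP response element, which CREB binds. The 4 were chosen after the matches were seen. Each run is the 250 bases before the start of the first listed transcript, 5′ to 3′ on the gene's strand, from RefSeq on GRCm38.p6, and the capitals mark CACGTG or TGACGTCA. Per1 lies on the plus strand at chr11:69098699-69098948, Tef on the plus strand at chr15:81802423-81802672, Btg2 on the minus strand at chr1:134079156-134079405 and Dusp1 on the minus strand at chr17:26508473-26508722.
Per1: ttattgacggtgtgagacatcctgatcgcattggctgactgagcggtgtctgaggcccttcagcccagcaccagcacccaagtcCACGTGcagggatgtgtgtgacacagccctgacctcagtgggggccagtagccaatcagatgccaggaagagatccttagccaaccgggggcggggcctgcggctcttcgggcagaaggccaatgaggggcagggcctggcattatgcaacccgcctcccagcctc
Tef: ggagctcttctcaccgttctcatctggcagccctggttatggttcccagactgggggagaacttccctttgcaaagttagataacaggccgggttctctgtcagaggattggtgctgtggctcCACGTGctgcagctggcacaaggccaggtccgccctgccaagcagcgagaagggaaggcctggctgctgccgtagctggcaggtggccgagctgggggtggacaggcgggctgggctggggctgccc
Btg2: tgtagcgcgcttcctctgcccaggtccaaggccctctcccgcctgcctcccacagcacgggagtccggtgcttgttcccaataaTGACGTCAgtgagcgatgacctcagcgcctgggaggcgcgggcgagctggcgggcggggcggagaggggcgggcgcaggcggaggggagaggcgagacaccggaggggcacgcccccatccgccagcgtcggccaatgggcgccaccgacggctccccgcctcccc
Dusp1: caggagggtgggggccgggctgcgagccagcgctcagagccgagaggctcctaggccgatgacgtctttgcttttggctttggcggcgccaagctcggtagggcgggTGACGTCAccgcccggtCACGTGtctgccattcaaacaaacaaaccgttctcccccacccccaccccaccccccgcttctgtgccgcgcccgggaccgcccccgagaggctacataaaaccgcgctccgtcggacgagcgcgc
The E-box of Per1 begins 166 bases before the start and that of Tef 127 bases before it. The response element begins 166 bases before the start of Btg2 and 143 bases before that of Dusp1, which also holds an E-box 126 bases before its start. Both motifs read the same on either strand. CACGTG was found in 5 of the 14 clock genes with a promoter in the table (Per1, Tef, Cry1, Ciart and Bhlhe41), against 6.05% of all 27025 promoters. TGACGTCA was found in 2 of 15 immediate early genes, against 1.62% of all. CACGTG was also found in 2 of the 15 immediate early genes (Egr2 and Dusp1), and TGACGTCA in 1 of the 14 clock genes (Hlf). The CArG box of serum response factor was found in none of the 15, against 1.399% of all, and TAATCC, a motif of OTX factors searched on both strands, in none of the 5 choroid plexus genes with a promoter in the table, against 6.38% of all. A match describes these letters only, and no match says nothing about a factor.

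Genes with these motifs differed in spread. Cry1, a repressor of the clock, had a CV of 9.47% and Ciart, another repressor, one of 19.8%. Bhlhe41, a repressor that binds E-boxes, was at 56.98 CPM in female WT 2 and at 28.7 to 39.4 CPM in the other mice. Btg2, an antiproliferative factor, was at 39.3, 37.7 and 35.1 CPM in the females and 33.5, 26.98 and 27.8 CPM in the males. Dusp1, a phosphatase of MAP kinases, was at 29.6, 32.4 and 28.5 CPM in the females and 22.3, 21.98 and 22.5 CPM in the males. For Btg2 and Dusp1 every female lay above every male, which held for 3.8% of all genes tested. They were the only 2 of the 20 immediate early genes with that order, while 1 had every male above every female, 15 had a higher mean in males and the median log2 difference over the list was 0.098.

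Male against female was the comparison that the labels of these 6 mice allow, with 3 against 3 in edgeR's quasi-likelihood test and Benjamini-Hochberg adjustment over 17355 genes. It called 5 genes, 0.0288% of those tested, all from the sex chromosomes. Xist was lower in males, with a log2 change of -8.54 ± 0.198 (SE derived from the F statistic of the test; adjusted p = 9.34e-08). Eif2s3y, a translation initiation factor subunit, was at 0.0613, 0 and 0.0691 CPM in the females and 35.4, 34.7 and 36.5 CPM in the males (adjusted p = 2.02e-07). Kdm5d, a histone demethylase, was at 11.9, 15.7 and 12.8 CPM in the males and had no count in the females (adjusted p = 0.000268). Ddx3y, an RNA helicase, was at 0, 0.076999 and 0 CPM in the females and 12.5, 26.03 and 14.7 CPM in the males (adjusted p = 0.00032). Uty, another histone demethylase, was at 0.0613, 0 and 0 CPM in the females and 4.84, 9.396 and 4.82 CPM in the males (adjusted p = 0.00187). Ddx3y and Uty were not called by limma-voom, with adjusted p-values of 0.367 and 0.232. An unadjusted p under 0.05 was reached by 439 genes. Because the female libraries were all deeper, depth and sex cannot be told apart.

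The X-linked partners of these Y genes were not called. Eif2s3x, which escapes X inactivation, was at 35.1, 38.3 and 37.9 CPM in the females and 26.2, 23.7 and 24.1 CPM in the males, a log2 change of -0.59 with an adjusted p of 0.343 in edgeR's test. It was called when the fit took all 12 mice (adjusted p = 0.0296) and by DESeq2 (adjusted p = 0.0146), and 34.6% of its 50-base stretches occur in other genes. Kdm5c was at 75.7, 82.4 and 81.4 CPM in the females and 66.1, 69.1 and 67.5 CPM in the males, again without overlap. Every female lay above every male for 3.8% of all genes tested. Ddx3x and Kdm6a overlapped between the sexes, at 74.9 to 145 CPM and 12.4 to 20.4 CPM.

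No autosomal gene was called, and the lists are given by counts. The 12 glucocorticoid-responsive genes, which stress hormone induces, summed to 501, 627 and 602 CPM in the females and 709, 780.5 and 666 CPM in the males. All 12 had a higher mean in males, against 8874 of the 17355 genes tested, their median log2 difference was 0.33 against 0.0039 over all genes, and 5 of the 12 had every male above every female, against 3.91% of all genes tested. Other lists were one-sided too. The mean was higher in males for 14 of 15 postsynaptic density genes, 1 of 12 interferon-stimulated genes and none of the 10 oligodendrocyte genes. For no gene of those other lists did every male or every female lie above the other sex. Tsc22d3, a leucine zipper protein induced by glucocorticoids, was at 67.1, 77.5 and 70.3 CPM in the females and 95.8, 115 and 90.6 CPM in the males. Sgk1, a kinase induced by the same hormones, was at 92.01, 143 and 121 CPM in the females and 144, 195 and 155 CPM in the males. Male WT 2 was the highest mouse for 9 of the 12 glucocorticoid-responsive genes, against 20.3% of all genes. Female WT 1 was the lowest for 8, against 16.2%. Of the 16 clock genes, 3 had every male above every female and none the reverse.

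Transcripts of red blood cells had the opposite order, with all 4 that were tested higher in every female than in every male, against 3.8% of all genes tested. Of the 4, Hbb-bs and Slc4a1 had means under 1 CPM, and every female library was deeper. Alas2, the heme synthesis enzyme of erythroid cells, was at 10.8, 6.54 and 6.22 CPM in the females and 4.84, 5.86 and 4.91 CPM in the males. Hba-a2, an alpha-globin gene, was at 17.03, 12.3 and 13.5 CPM in the females and 6.697, 11.7 and 8.42 CPM in the males. The globin genes share sequence, 89.3% of the 50-base stretches of Hba-a2 occurring in 1 other gene, and Hba-a1 had 1 count in all, so the globin level depends on how shared reads were counted.

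Nell1, the gene that carries the mutation in the other mice of the series and encodes a secreted protein with EGF-like repeats, was at 38.9, 43.9 and 36.4 CPM in the female WT mice and 35.9, 34.7 and 30.5 CPM in the male WT mice. Its mean was 36.7 CPM ± 4.46 (SD, n = 6), or 5.55 ± 0.673 RPKM, and its CV of 12.1% was above the median of all genes. The sexes did not overlap, the females being higher, with a log2 difference of -0.24 for male against female that was not called, and 3.8% of all genes tested had the same order.

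A further group of genes took separate levels in different mice. By a rule set after the values were seen (a gap of at least 1 on the log2 scale with at least 2 mice on each side, and each side spread by at most 0.5 of the gap), 16 of 13312 genes with a mean of at least 2 CPM qualified. The 5 genes of the sex test were among them, and the other 11 did not follow sex. Fam120b, a coactivator of PPAR gamma, was at 55.3 CPM in female WT 1 and 51.6 CPM in male WT 3, and at 13.1 to 14.6 CPM in the other 4 mice. None of its 50-base stretches is shared with another gene. Vat1l was high in the same pair, at 38.04 and 46.7 CPM against 13.8 to 18.9 CPM. Rps2, a ribosomal protein, was high in them too, at 26.2 and 22.7 CPM against 4.29 to 6.47 CPM, with 42.97% of its stretches shared with 72 genes. Fam120b and Rps2 both lie on chromosome 17, at 15396202 to 15433581 and 24718121 to 24721927 (GRCm38), and Vat1l lies on chromosome 8.

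Other genes of the group split the mice differently. Zfp605, a zinc finger gene of chromosome 5, was at 23.3 CPM in female WT 1 and 21.3 CPM in male WT 2, against 5.21 to 7.19 CPM. The gene 4833420G17Rik was at 19.9 CPM in male WT 1 and 18.9 CPM in male WT 3, against 5.33 to 7.15 CPM. Klk1b22, a kallikrein of chromosome 7, was at 4.08, 4.65 and 3.19 CPM in female WT 2, male WT 1 and male WT 2, and at 0 to 0.0877 CPM in the others. Gm8615 and F630042J09Rik were low in female WT 1 and male WT 3 alone, Gm8615 at 0.551 and 0.789 CPM against 6.697 to 8.296 CPM. A pair of ribosomal protein genes belongs here as well. Rpl30 was at 15.2, 17.95 and 21.6 CPM in female WT 3, male WT 1 and male WT 3 and at 5.47 to 5.94 CPM in the others. Rpl26 was at 12.9 and 17.2 CPM in female WT 3 and male WT 2 and at 35.4 to 39.999 CPM in the others. Of their stretches, 10.7% and 22.7% are shared, and ribosomal protein genes as a list had a median CV of 9.26%.

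The mice also differed along the length of the transcript. For each gene with a mean of at least 5 CPM and a known exon length (11349 genes), the deviation of a mouse from the mean of the 6 was taken on the log2 scale. In the 958 genes of 8 kb or more, the median deviation was 0.19 in male WT 2, 0.11 in female WT 3 and 0.0099 in male WT 3, and -0.13 in male WT 1, -0.089 in female WT 2 and -0.064 in female WT 1. In the 356 genes under 1 kb the signs were the reverse in all 6 mice, from -0.074 in male WT 2 to 0.0797 in male WT 1. Spearman's rho between deviation and exon length across genes was 0.45 in male WT 2 and -0.39 in male WT 1, again a description across genes. Both signs occurred in each sex.

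**Figure D5:**
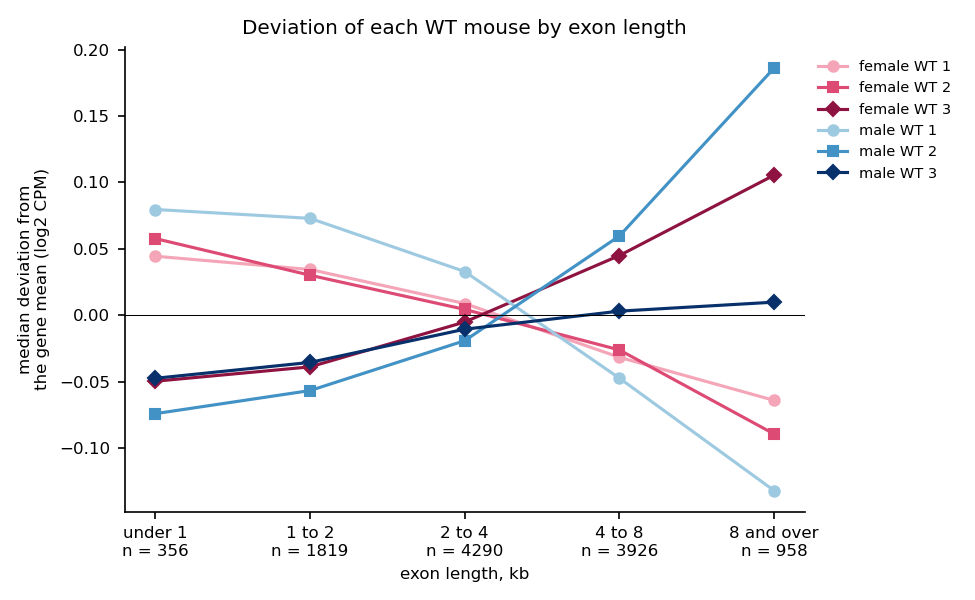
Median deviation of each WT mouse from the mean of the 6 (log2 CPM) in 5 classes of exon length, with the number of genes in each. Male WT 2 rises from -0.074 under 1 kb to 0.19 at 8 kb and over, female WT 3 rises likewise, and male WT 1, female WT 1 and female WT 2 fall.

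Male WT 2 was the highest mouse for 514 of the 958 genes of 8 kb or more and male WT 1 the lowest for 320, against 20.3% and 17.1% of all 11609 genes. Of the 184 genes more than 0.5 log2 units above the mean in male WT 2, the median exon length was 6.72 kb, against 3.59 kb over all, and among the 189 genes that far below it in male WT 1 it was 5.29 kb. Of the genes named above, and picked here for their peak in that mouse, Uhmk1 (8.101 kb), Clock (9.93 kb), Prox1 (8.39 kb), Dsp (9.59 kb) and Nr4a3 (5.72 kb) were highest in male WT 2. So was Grin2a, an NMDA receptor subunit with 14.97 kb of exon, at 18.8 CPM against 7.91 to 11.8 CPM. Among the 75 ribosomal protein genes, male WT 1 was the highest mouse for 47, against 22.1% of all genes, and the lowest was male WT 3 for 26, female WT 3 for 22 and male WT 2 for 17. Among the 79 respiratory chain genes, male WT 2 was the lowest mouse for 40, against 16.1% of all genes, and the highest was male WT 1 for 24, female WT 2 for 23 and female WT 1 for 21. The part of transcript length in the spread of any gene was not tested.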

How the data were processed

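Hippocampal RNA of the 6 WT mice was analysed from a table of gene counts. The authors aligned single 50-base reads to mm10 with HISAT2 2.1.0 and counted them per Entrez gene with featureCounts (2.0.1 per the labels, whereas the published methods name another version), and the deposited values are raw counts. The strand setting and the handling of reads that fit several genes were not stated. Columns were matched to mice by their names and no column was left over.

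CPM was computed on TMM effective library sizes (edgeR 4.0.16, R 4.3.3; limma 3.58.1 and DESeq2 1.42.0 as alternatives), with tables in Python 3.11.15. A table of 27179 gene IDs was named from RefSeq (25275) and GENCODE (18), and 1886 IDs had no name. Exon length was the union of annotated exons. Shared sequence was counted as 50-base stretches found in transcripts of another gene. The excess CV removes the Poisson part of the variance. Males were compared with females by edgeR's quasi-likelihood test after a filter of 0.2 CPM in at least 2 mice, with Benjamini-Hochberg adjustment, and the pipeline was tested on simulated counts. The p-values measure the spread between these 6 libraries. Depth was 10834905 to 16016317 counts, so that 0.2 CPM stood for 2.17 to 3.203 counts. The male and female replicate numbers did not pair the mice.

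Named genes were the 20 highest by CPM and per kilobase, the 20 with the highest excess CV (mean at least 5 CPM), the 20 with the lowest CV (mean at least 50 CPM), the genes called between the sexes, up to 4 members of each list that were highest by CPM or CV, reference and sex-linked genes, and Nell1. The choice of any other gene named followed a look at its values. The mice were taken by label, but the choice to describe them, the rules and the lists were made with earlier results of these data known. Some genes of these groups are not reported here.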

Additional observations from a re-analysis of the deposited data

Results flagged for a closer look

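In 3 of 34 values tried over the 6 mice, 1 mouse stood further from the others than Dixon's 95% critical value allows, where chance alone gives about 1 in 20. The summed level of the astrocyte list was 6904 CPM in male WT 2, against 6161 CPM in the next mouse, female WT 3. Male WT 2 was the highest mouse for 5 of the 10 members, and Slc1a2 alone was at 3071 CPM there and at 2061 to 2575 CPM in the others. The summed level of the oligodendrocyte precursor list was 156 CPM in male WT 2, against 134 CPM in female WT 3, and Pdgfra was at 57.3 CPM in male WT 2 and at 30.95 to 39.4 CPM in the others. Slc1a2 and Pdgfra have 12.1 and 8.77 kb of exon, and male WT 2 was the mouse with the highest median deviation in genes of 8 kb or more, 0.19 on the log2 scale. The part of exon length in both sums was not tested. The summed level of the hypothalamus and pituitary peptides was 7.47 CPM in female WT 2, against 3.86 CPM in female WT 1, and Pomc made up 3.08 CPM of it.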

How the results depend on the processing

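Without the most abundant gene ID, the first 10 held 6.01% of the counts in place of 9.38%, and the first 100 held 19.8% in place of 22.9%. The median CV was 10.9% with genes of at least 1 CPM and 7.04% with genes of at least 50 CPM, against 9.299%. Between the sexes, limma-voom called 3 genes, edgeR with all 12 mice 6 and DESeq2 6, against 5. The replicate numbers did not pair the mice: the deviations of same-numbered mice from their sex means correlated at -0.17, -0.29 and -0.28 across 11609 genes, while female WT 1 with male WT 3, female WT 2 with male WT 1 and female WT 3 with male WT 2 correlated at 0.37, 0.297 and 0.42. The fit with the replicate number as a block called 5 genes, with 339 at an unadjusted p under 0.05 against 439. Leaving out 1 mouse at a time gave 13730 to 13758 detected genes, shares of 9.25% to 9.57% and 22.8% to 23.1%, a median CV of 8.92% to 9.45%, 17 to 20 lists above it, and 5 to 6 genes between the sexes. The sixth, without male WT 2, was 4833420G17Rik (log2 change 1.68, adjusted p = 0.00964 by edgeR). Without male WT 3, 12 of the 20 most variable genes stayed in that group and 7 fell under the 5 CPM floor, while all 20 kept a CV above 50%. The CV of Erdr1 fell to 40.1% without male WT 1, and that of Uhmk1 to 48.6% without male WT 2. Without male WT 3 and female WT 1 together, a setting chosen after seeing the data, 6 stayed and 13 fell under the floor, while 19 kept a CV above 50%. The genes at 5 CPM or more with a CV above 50% were then 48 in place of 82. Of the 20 steadiest genes, 7 stayed with library totals in place of TMM. A rank by the SD of log2 CPM kept 16 of the 20 most variable, and so did edgeR's biological CV. Depth limits the spread that can be seen in genes near the 5 CPM floor.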
